A study of Mus musculus with 24 samples.

Results

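The 10 genes examined in mouse frontal cortex belong to the interleukin-6 (IL-6) signalling route: the ligand gene Il6, the receptor genes Il6ra, Il6st, Osmr and Lifr, the kinase genes Jak1 and Jak2, the transcription factor gene Stat3, and the target genes Socs3 and Bcl3. They were chosen by symbol from the 33000 genes of the deposited count table, and all 10 are in it. The groups were wild-type (WT) C57BL/6 mice and mice homozygous for the GFAP-IL6 transgene, with 3 animals per genotype, each 3 months of age and otherwise untreated as far as the labels say. In GFAP-IL6 mice a Gfap promoter drives Il6, so the cytokine is made by astrocytes and by any other cell in which that promoter is active. From every animal, 4 libraries were prepared by 3'Pool-seq, a method that reads the 3' ends of polyadenylated RNA: 2 ng or 1 ng of amplified cDNA was used for tagmentation, in each of 2 sets called A and B, whose difference the labels do not give. The counts of the 4 libraries were added up for each mouse, which was the replicate, and between 7852743 (WT mouse 3) and 37582644 (GFAP-IL6 mouse 3) counts were available per mouse. Whether the 3 mice of a genotype were littermates or shared a cage is not stated, so p-values measure the spread between these mice. Neuron, oligodendrocyte and astrocyte markers were high in all 6 mice, with 5401 to 6463, 5522 to 8636 and 1545 to 1814 CPM (reads of a gene relative to the TMM-adjusted library total) summed over 6 genes each, and none of these 18 genes differed between genotypes at an adjusted p under 0.05.

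IL-6 binds its receptor IL-6Rα, encoded by Il6ra, and the complex recruits gp130, encoded by Il6st, the signal-transducing chain that is shared by the whole cytokine family. Oncostatin M and leukaemia inhibitory factor use gp130 as well, together with the chains encoded by Osmr and Lifr. JAK kinases bound to gp130 phosphorylate STAT3, which enters the nucleus and switches on target genes. Among these is Socs3, whose protein binds gp130 and the JAKs and shuts the signal off. In the brain this route is known for its part in astrocyte reactivity.

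Of the 10 genes 3, Il6, Osmr and Socs3, were higher in GFAP-IL6 cortex at an adjusted p under 0.05 in edgeR's quasi-likelihood test, and these 3 also exceeded an absolute log2 fold change of 1. Of all 14621 genes tested, 1.8% passed this threshold and 1.23% passed both. Among all genes past the threshold, 255 were higher and 8 lower in GFAP-IL6 mice. All 10 genes passed the filter on low counts, but Il6 and Bcl3 did so only by their levels in GFAP-IL6 mice, where they were higher. Their inclusion in the counts of genes and in the median given here depends on that group. The median log2 fold change of the 10 was 0.55, against -0.01 over all genes tested. In all, 6 of the 10, the 3 above together with Il6ra, Stat3 and Bcl3, had higher CPM in each GFAP-IL6 mouse than in any WT mouse, a pattern seen in 8.43% of all genes tested. Il6st, Lifr, Jak1 and Jak2 overlapped between genotypes. With 3 mice against 3, an exact permutation test on a single gene cannot give a two-sided p below 0.1, and p = 0.1 was obtained for each of the 6 that did not overlap.

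**Figure D1:**
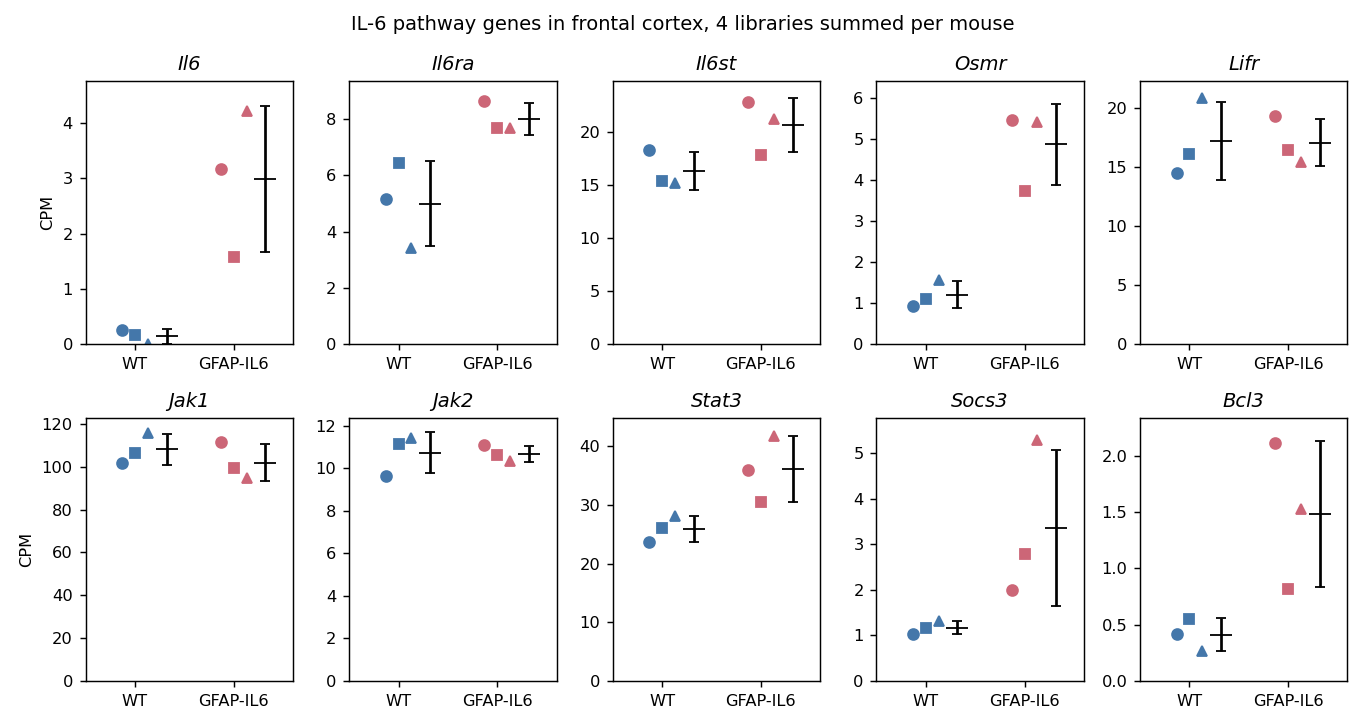
CPM of the 10 genes in each mouse, with the 4 libraries of a mouse summed. Each panel has its own linear axis from 0, circle, square and triangle stand for mouse 1, 2 and 3 of a genotype, and the black bar gives the mean ± SD of 3 mice. Il6, Il6ra, Osmr, Stat3, Socs3 and Bcl3 show every GFAP-IL6 mouse above every WT mouse, whereas Il6st, Lifr, Jak1 and Jak2 overlap.

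Il6 (ENSMUSG00000025746.9, chromosome 5, 30013114 to 30019981 on the plus strand of mm10) was close to the detection limit in WT cortex. The 3 WT mice gave 5, 3 and 0 counts, or 0.260, 0.166 and 0 CPM, where a count of 0 allows for up to 3 counts in that mouse. The 3 GFAP-IL6 mice gave 30, 33 and 163 counts, or 3.16, 1.58 and 4.22 CPM. The lowest GFAP-IL6 value was thus several times the highest WT value. The pooled rate was 18.8 times higher (95% interval 9.40 to 44.2, counting error only, from 226 and 8 counts), and the fitted log2 fold change was 4.06 ± 0.57 (SE, n = 3 per genotype, adjusted p = 0.000783). The groups did not overlap in any of the 4 library sets, which are repeat libraries of the same mice and not further replicates. WT libraries held 0 to 2 counts, with 7 of 12 at 0, and GFAP-IL6 libraries 3 to 51. Since the sources used here do not describe the 3' end of the transgene, these counts are reads aligned to the Il6 gene, and transgenic and endogenous Il6 RNA cannot be told apart.

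Among the receptor chains, Osmr stood apart from the others. Osmr (ENSMUSG00000022146.10, chromosome 15, 6813577 to 6874969, minus strand) encodes the oncostatin M receptor chain that pairs with gp130. Its level was 0.936, 1.11 and 1.57 CPM in WT mice 1 to 3 and 5.48, 3.74 and 5.42 CPM in GFAP-IL6 mice 1 to 3. Every GFAP-IL6 mouse was more than double the highest WT mouse. The log2 fold change was 2.08 ± 0.30 (SE, adjusted p = 0.000813), which is a 4.24-fold difference (95% interval 2.74 to 6.58). It stayed past the threshold in each of 14 fits, at log2 fold changes between 1.92 and 2.25. In bulk tissue, more cells of a type that expresses a gene and more RNA per cell cannot be told apart, and this holds for all values given here.

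Il6ra (ENSMUSG00000027947.9, chromosome 3, 89864059 to 89913196, minus strand), which binds IL-6 itself, was at 5.15, 6.42 and 3.41 CPM in WT and at 8.64, 7.67 and 7.67 CPM in GFAP-IL6 mice. The groups did not overlap, but WT mouse 2 lay near the GFAP-IL6 range and the difference did not pass the test (log2 fold change 0.62 ± 0.21, adjusted p = 0.253). Il6st (ENSMUSG00000021756.10, chromosome 13, 112464070 to 112510086, plus strand) was at 18.4, 15.4 and 15.2 CPM in WT and at 22.9, 17.9 and 21.2 CPM in GFAP-IL6 mice. Here WT mouse 1 lay above GFAP-IL6 mouse 2, and the log2 fold change of 0.32 ± 0.13 had an adjusted p of 0.452. Lifr (ENSMUSG00000054263.9, chromosome 15, 7090614 to 7197489, plus strand), the chain for leukaemia inhibitory factor, was at 14.5, 16.1 and 20.9 CPM in WT and at 19.3, 16.4 and 15.4 CPM in GFAP-IL6 mice. Its groups overlapped fully, and the 95% interval of its log2 fold change ran from -0.31 to 0.31, so that a rise of the size measured for Osmr lies outside it.

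The relation of Osmr to the other chains was compared within each mouse as a log2 ratio of counts, which cancels the library size. Osmr relative to Lifr was at -3.92, -3.83 and -3.67 in WT and at -1.80, -2.13 and -1.51 in GFAP-IL6 mice, a difference of 1.99. Osmr relative to Il6st differed by 1.66 and Osmr relative to Il6ra by 1.28. In each of these ratios all GFAP-IL6 mice lay above all WT mice, with a two-sided exact permutation p of 0.1, the smallest that 3 against 3 allows, and 0.1 after adjustment over the 4 ratios examined. These ratios share the Osmr counts, so they are independent neither of each other nor of the Osmr difference given above. The ratio to Il6ra was the least even among WT mice, from -2.51 to -1.08, the latter in WT mouse 3, where Il6ra was lowest.

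The kinase genes did not pass the test. Jak1 (ENSMUSG00000028530.12, chromosome 4, 101152367 to 101265282, minus strand) was at 102, 106 and 116 CPM in WT and at 111, 99.3 and 94.95 CPM in GFAP-IL6 mice, with a log2 fold change of -0.09 (95% interval -0.28 to 0.11, adjusted p = 0.88). The last exon of Jak1 overlaps Raver2 on the opposite strand, which had 594 counts over all libraries, and whether counting used strand is not given in the sources used here. Jak2 (ENSMUSG00000024789.10, chromosome 19, 29251828 to 29313080, plus strand) was at 9.62, 11.1 and 11.4 CPM in WT and at 11.1, 10.6 and 10.3 CPM in GFAP-IL6 mice, with a log2 fold change of -0.001 and an interval from -0.30 to 0.30. For both kinase genes the WT and GFAP-IL6 values were interleaved, and their intervals leave out a change of 1.5-fold in either direction.

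Stat3 (ENSMUSG00000004040.14, chromosome 11, 100885098 to 100939540, minus strand), the factor that carries the signal to the nucleus, was modestly higher and did not pass the threshold. It was at 23.7, 26.1 and 28.1 CPM in WT and at 35.9, 30.6 and 41.9 CPM in GFAP-IL6 mice. Each GFAP-IL6 mouse exceeded each WT mouse, the closest pair being WT mouse 3 and GFAP-IL6 mouse 2. The log2 fold change was 0.49 ± 0.13 (SE), a 1.41-fold difference (95% interval 1.17 to 1.69), with an adjusted p of 0.0686. This value lies near the threshold and crossed it with some settings: adjusted p was 0.046 with DESeq2, 0.0387 without TMM scaling, 0.00251 without a filter on low counts, 0.000967 in a voom fit of all 24 libraries with mouse as a random block, and 0.0347 without GFAP-IL6 mouse 2. It rose to 0.57 without GFAP-IL6 mouse 3, where the log2 fold change was 0.36. The voom fit used 1 within-mouse correlation (0.238) for all genes. Its p thus draws partly on repeat libraries of the same mice and is not on a par with those from mouse sums.

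Socs3 (ENSMUSG00000053113.3, chromosome 11, 117966079 to 117970047, minus strand), the feedback inhibitor, was at 1.04, 1.16 and 1.31 CPM in WT and at 2.003, 2.78 and 5.29 CPM in GFAP-IL6 mice. The WT mice were close to each other, while GFAP-IL6 mouse 3 was clearly above the other two. The log2 fold change was 1.62 ± 0.37 (SE), a 3.08-fold difference (95% interval 1.79 to 5.32), with an adjusted p of 0.0329. Without GFAP-IL6 mouse 3 the log2 fold change was 1.08 and the adjusted p 0.572, and the call was also lost without GFAP-IL6 mouse 2 (adjusted p = 0.0557), WT mouse 1 (0.138) or WT mouse 2 (0.128). Socs3 relative to Stat3 was at -4.48, -4.46 and -4.35 in WT and at -4.13, -3.45 and -2.98 in GFAP-IL6 mice as a log2 ratio of counts, a difference of 0.91 without overlap (two-sided exact permutation p = 0.1). Of the GFAP-IL6 mice, mouse 1 lay closest to the WT ratios and mouse 3 farthest from them.

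Bcl3 (ENSMUSG00000053175.14, chromosome 7, 19808462 to 19822770, minus strand) encodes an atypical IκB protein that acts with NF-κB subunits in the nucleus and is a known STAT3 target gene. It had 8, 10 and 2 counts in WT mice and 20, 17 and 59 in GFAP-IL6 mice, or 0.416, 0.554 and 0.262 CPM against 2.11, 0.815 and 1.53 CPM. The groups did not overlap, and the fitted difference of 1.69 ± 0.49 on the log2 scale was about as large as that of Socs3, but its adjusted p was 0.14. With 14 of 24 libraries at 3 counts or fewer, the depth limits what can be said of Bcl3.

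The same genotype comparison was made within each library set, with 1 library per mouse. Il6 and Bcl3 were too low to be tested in any set, Osmr was tested in 3 sets and Socs3 in 2. Il6ra and Socs3 passed the threshold in the set with 1 ng cDNA and letter A, Osmr passed in that with 1 ng and letter B, and none of the 10 genes passed in either set with 2 ng. Socs3 in 1 ng set A and Osmr in 2 ng set B and 1 ng set B passed the filter on low counts only by their levels in GFAP-IL6 mice, where they were higher. That they were tested there, and so the calls of Socs3 and Osmr, depends on that group. The share of all genes tested that passed was 1.1% for 1 ng with letter A, 1.08% for 1 ng with letter B, 1.03% for 2 ng with letter A and 1.08% for 2 ng with letter B. Osmr had log2 fold changes of 1.503, 1.85 and 2.49 in the 3 sets in which it was tested. Stat3 passed in no set, and its log2 fold change varied little between sets, from 0.44 to 0.56. Lifr, Jak1 and Jak2 stayed between -0.23 and 0.11 in all sets.

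**Figure D2:**
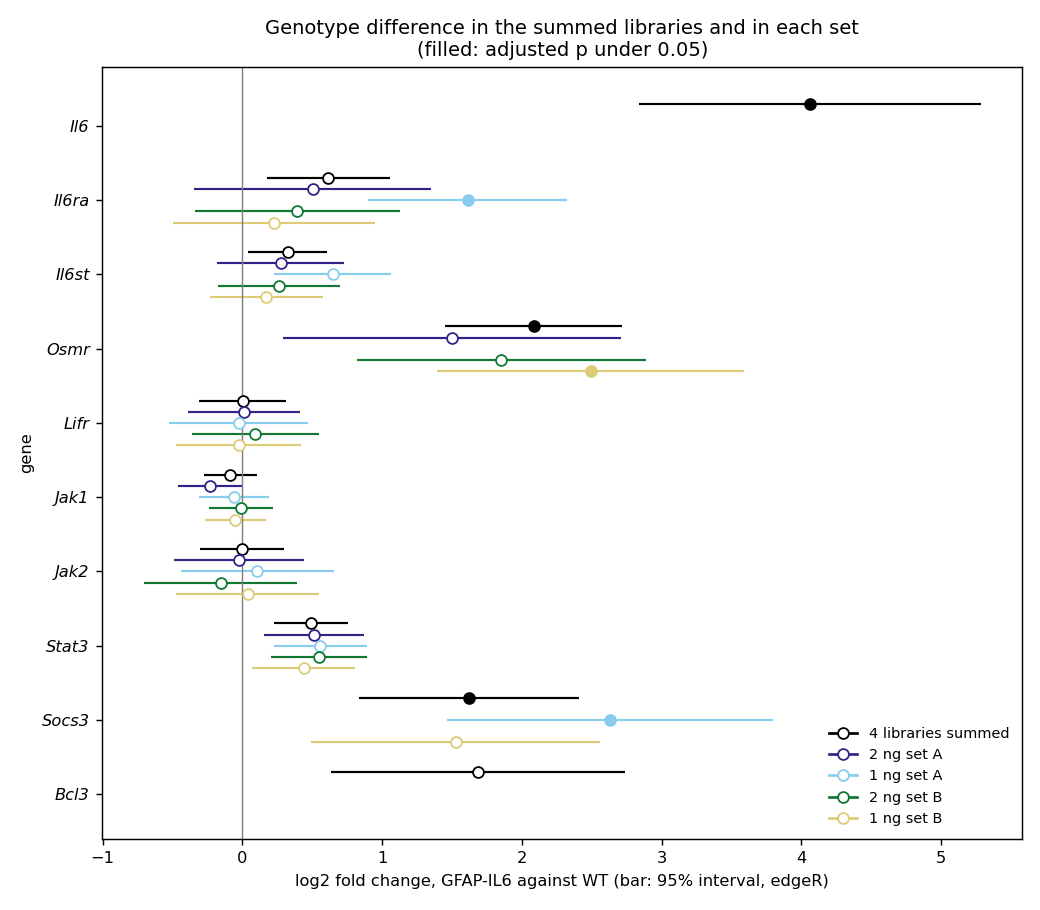
Log2 fold change of each gene in GFAP-IL6 against WT mice, with 95% intervals from edgeR, for the 4 summed libraries per mouse and for each set. Filled points have an adjusted p under 0.05, and a missing point means that the gene was too low to be tested there. Stat3 lies between 0.44 and 0.56 in the 4 sets, and Il6ra ranges from 0.23 to 1.61.

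Of the 6 genes that could be tested in all 4 sets, Il6ra had the widest range of log2 fold changes. In 1 ng set A it was at 3.42, 2.95 and 2.46 CPM in WT and at 6.67, 9.06 and 11.0 CPM in GFAP-IL6 mice, a log2 difference of 1.61 ± 0.35 (SE, adjusted p = 0.0134). In 2 ng set A GFAP-IL6 mouse 1, at 0.975 CPM, was below the 3 WT mice, and in 1 ng set B WT mouse 2, at 10.6 CPM, was above GFAP-IL6 mice 2 and 3. Across the 4 sets its log2 fold change ran from 0.23 to 1.61. Whether the genotype difference itself changed with the set was tested on 7 of the 10 genes in a voom fit of all libraries: none of the 7 passed for cDNA amount (0.0% of all genes passed) or for set letter (0.0%). At an unadjusted p under 0.05, the genotype difference varied with cDNA amount in 268 of 12146 genes (2.21%) and with set letter in 710 (5.85%). These shares are below and near the one that this threshold lets through when nothing differs. For Il6ra the genotype difference was 0.90 lower in B than in A on the log2 scale (95% interval 0.06 to 1.73 lower, unadjusted p = 0.0358, adjusted p = 0.824).

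Socs3 in 1 ng set A was at 0.641, 0.453 and 1.48 CPM in WT and at 3.75, 3.28 and 6.26 CPM in GFAP-IL6 mice, with a log2 fold change of 2.63 ± 0.57 (SE, adjusted p = 0.0134). The groups overlapped in the other 3 sets, where GFAP-IL6 mouse 1 or 2 lay below the highest WT mouse. GFAP-IL6 mouse 3 was the highest of the 6 mice in all 4 sets, from 3.01 to 6.26 CPM. Osmr overlapped only in 2 ng set A, in which WT mouse 3, with 6 counts, was at 3.99 CPM. In 1 ng set B Osmr was at 1.57, 0.661 and 0.387 CPM in WT and at 7.45, 2.84 and 6.72 CPM in GFAP-IL6 mice (log2 fold change 2.49 ± 0.53, adjusted p = 0.0178).

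**Figure D3:**
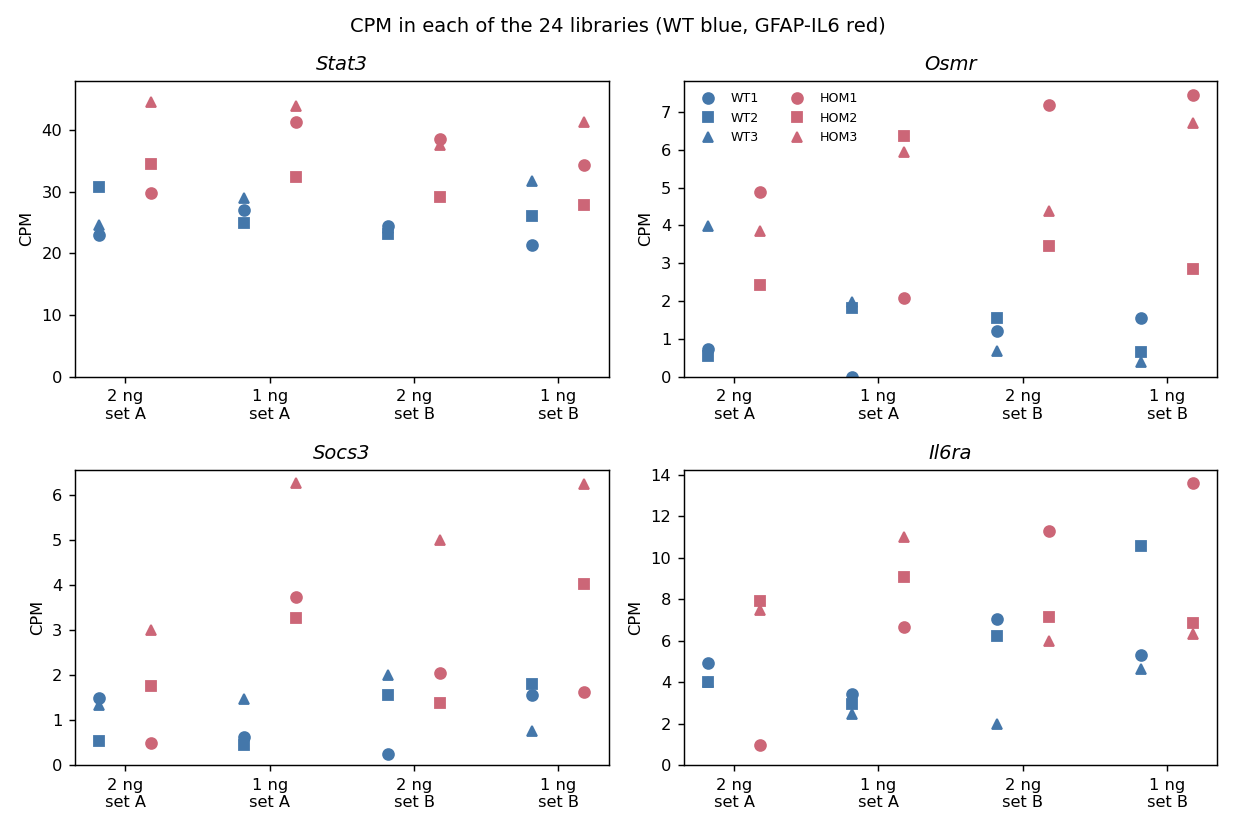
CPM of Stat3, Osmr, Socs3 and Il6ra in each of the 24 libraries, by cDNA amount and set, with WT in blue, GFAP-IL6 (HOM in the labels) in red, and circle, square and triangle for mouse 1, 2 and 3. Socs3 of GFAP-IL6 mouse 3 is the highest point in every set, and Il6ra of GFAP-IL6 mouse 1 is the lowest point in 2 ng set A.

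Around these 10 genes, the other members of the pathway were followed as gene lists. Of 11 IL-6 family cytokine genes only 4 could be tested, and Il6 was the 1 that passed. Of 8 receptor genes 6 were tested, and Osmr alone passed: the receptor genes tested that are not among the 10, Il11ra1 and Cntfr, had log2 fold changes of 0.05 and 0.03. None of 4 JAK kinase genes, 7 STAT genes and 12 adaptor genes of gp130 signalling passed. The share over all genes tested was 1.8%, so short lists without a pass are not particular to these gene classes. The medians of the JAK, STAT and adaptor lists were -0.04, 0.34 and -0.04 on the log2 scale. Of the 7 STAT genes 5 were higher without passing, and Stat4 and Stat5a were lower without passing, at -0.66 and -0.36.

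Over all genes tested 1.8% passed, most of them higher in GFAP-IL6 mice. Among 16 genes for inhibitors of JAK-STAT signalling 3 rose and none fell. These were Socs3 and the phosphatase genes Ptpn6 and Ptpn1, and the median of the list was 0.01. Ptpn6, whose product SHP-1 is a phosphatase of blood and immune cells, was at 4.58, 3.93 and 4.59 CPM in WT and at 6.22, 7.96 and 12.03 CPM in GFAP-IL6 mice (log2 fold change 1.06 ± 0.23, adjusted p = 0.0243). Ptpn1, which encodes the widely expressed phosphatase PTP1B, was at 62.7, 62.5 and 53.9 CPM in WT and at 71.5, 80.5 and 91.2 CPM in GFAP-IL6 mice (log2 fold change 0.44 ± 0.10, adjusted p = 0.0412). The genotypes did not overlap for either gene.

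Over all genes tested 1.8% passed, and of these 255 were higher and 8 lower, so a lack of falls is not particular to a list. Of 27 known STAT3 target genes 26 were tested, of which 9 rose, none fell and 17 did not pass. The median log2 fold change was 0.64, and 0.58 over the 22 tested that are not among the 10 genes. The list was drawn from general knowledge after results of these samples had been seen, so its direction is not independent evidence. Among the 9 that rose, the 8 with the largest differences were, in this order, Lcn2 (3.67 on the log2 scale), Lrg1 (2.61), Gfap (2.44), Osmr, Icam1 (2.01), Socs3, Cebpd (1.25) and Il4ra (1.17). Lcn2 had only 15 counts in WT mice, against 315 in GFAP-IL6 mice. Like Il6 and Bcl3, it passed the filter on low counts only by its level in GFAP-IL6 mice, and its place among the 9 depends on that group. The transgene carries a Gfap promoter and its 3' end is not described in the sources used here. Whether reads at Gfap include transgene RNA therefore cannot be told. Lcn2 encodes a secreted iron-siderophore-binding protein, Lrg1 a secreted glycoprotein, Gfap the astrocyte intermediate filament, Icam1 an adhesion molecule for leukocytes, Cebpd a transcription factor of the acute-phase response and Il4ra a chain of the IL-4 receptor. Icam1 rose from 1.09, 2.71 and 1.44 CPM in WT to 5.37, 6.86 and 8.89 CPM in GFAP-IL6 mice, and Cebpd from 7.59, 7.81 and 7.999 CPM to 12.96, 18.9 and 22.3 CPM. In neither gene did the groups overlap.

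**Figure D4:**
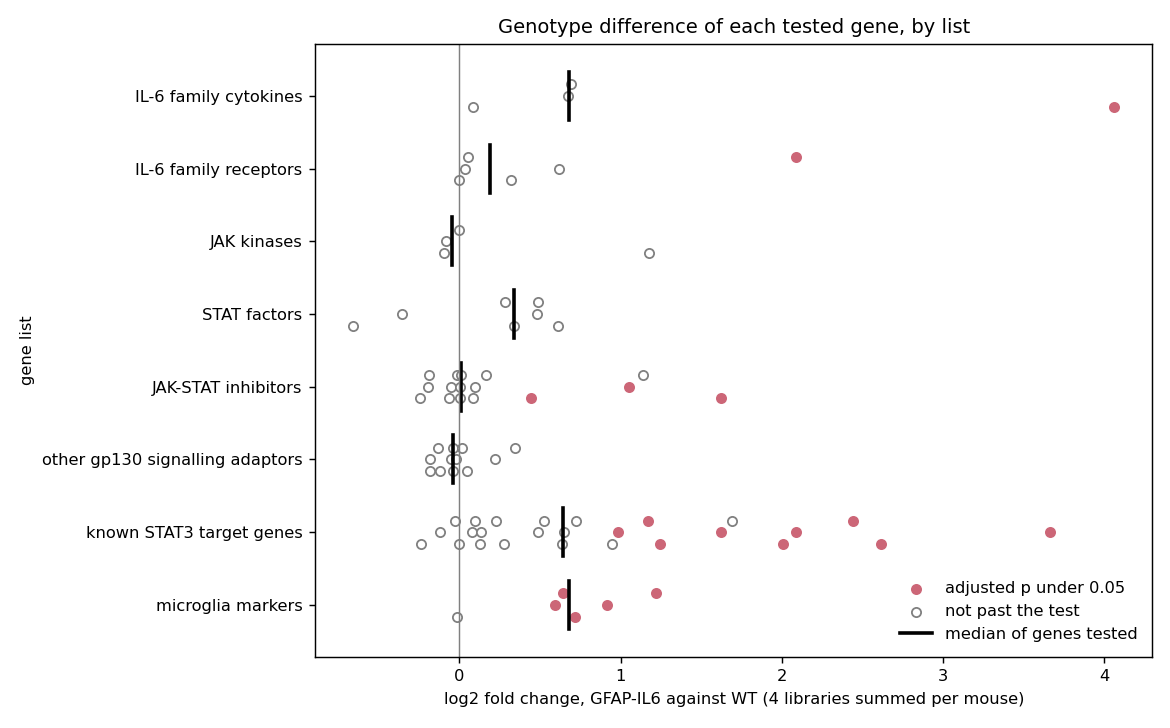
Log2 fold change of each gene tested (4 libraries summed per mouse), in 7 pathway lists and the microglia marker list, with red points for an adjusted p under 0.05, open points for genes that did not pass and a black line at the median of the list. The STAT3 target list has 9 of 26 genes past the test, and no JAK kinase, STAT factor or adaptor gene passed. The share past the test over all genes tested was 1.8%.

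STAT factors bind DNA at palindromic sites, of which TTCNNNGAA, with N for any base, is the textbook form. It equals its own reverse complement, so that 1 search covers both strands. It was searched in windows that reach from 250 bases upstream to 50 bases downstream of the RefSeq start site (GRCm38.p6), which were at hand for all 10 genes and for 22 of the 27 STAT3 target genes. Of the 10 genes only Socs3 had the motif, and 9.55% of 27025 genes with a window have it. Of the STAT3 target genes 3 of the 8 with a window that passed the expression test have it, Socs3, Icam1 and Gfap, against 1 of the 14 that did not pass, Bcl6. These counts are a description, without a test. The 250 bases upstream of the start site are shown for 3 of the genes that rose, with the motif in capitals, since 2 of them hold it and Osmr does not. Socs3 (chr11:117969367-117969616, minus strand) has TTCTTAGAA beginning 154 bases before the start site, Icam1 (chr9:21015690-21015939, plus strand) has TTCCCGGAA beginning 42 bases before it, and Osmr (chr15:6874314-6874563, minus strand) has none in its window.
Socs3: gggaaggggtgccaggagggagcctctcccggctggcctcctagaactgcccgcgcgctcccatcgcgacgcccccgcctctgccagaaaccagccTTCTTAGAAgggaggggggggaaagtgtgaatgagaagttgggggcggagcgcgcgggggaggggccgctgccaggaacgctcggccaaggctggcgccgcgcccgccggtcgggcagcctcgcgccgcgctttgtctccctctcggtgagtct
Icam1: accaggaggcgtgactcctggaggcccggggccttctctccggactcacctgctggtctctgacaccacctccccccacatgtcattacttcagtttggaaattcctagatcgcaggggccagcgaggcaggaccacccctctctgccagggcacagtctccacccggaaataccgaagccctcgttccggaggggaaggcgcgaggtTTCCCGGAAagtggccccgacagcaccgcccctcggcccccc
Osmr: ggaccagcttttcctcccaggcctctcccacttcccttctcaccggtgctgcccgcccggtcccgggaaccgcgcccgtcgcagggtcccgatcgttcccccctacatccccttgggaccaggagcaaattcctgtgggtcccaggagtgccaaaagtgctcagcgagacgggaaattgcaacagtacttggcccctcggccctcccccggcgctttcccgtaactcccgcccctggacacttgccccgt
The RefSeq start sites used lie 681 bases (Socs3) and 656 bases (Osmr) downstream of the outermost start of the gene in GENCODE vM21, and sequence beyond the windows was not searched.

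The genes whose log2 CPM followed those of Osmr, Stat3 and Socs3 most closely over the 6 mice were listed as a description, and part of each correlation is the genotype difference itself. For Osmr these were Nfam1 (Pearson r = 0.991), the amino acid transporter gene Slc38a5 (r = 0.988) and the insulin receptor substrate gene Irs2 (r = 0.987). For Stat3 they were the BMP receptor gene Bmpr1b (r = 0.998), Naaa (r = 0.995) and the microglial fractalkine receptor gene Cx3cr1 (r = 0.995). For Socs3 they were the purinergic receptor gene P2ry13 (r = 0.996), the kinase gene Clk2 (r = 0.989) and the microglial growth factor receptor gene Csf1r (r = 0.988). Of these 9 genes Nfam1, Slc38a5, Cx3cr1 and Csf1r passed the genotype test, with log2 fold changes of 1.41, 2.20, 0.72 and 0.64. The 9 were picked from 14621 genes by correlation, over only 6 mice, with genes whose genotypes did not overlap. High r and passes of the genotype test are therefore favoured by the choice, and their share cannot be set against the 1.8% over all genes tested.

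Markers of other cell types moved with genotype alongside these results. For scale, 1.8% of all genes tested passed, most of them higher in GFAP-IL6 mice. Of 6 microglia markers 5 rose, by 0.59 to 1.22 on the log2 scale, P2ry12 being at -0.02, and their summed level was 356 to 402 CPM in WT and 573 to 727 CPM in GFAP-IL6 mice. Of 6 endothelial markers 2 rose, Flt1 and Ly6c1 (summed level of all 6, 96.9 to 106 CPM in WT and 121 to 199 CPM in GFAP-IL6 mice). Most of that sum was Ly6c1 alone, with means of 69.3 CPM in WT and 121 CPM in GFAP-IL6 mice. None of the 6 meningeal fibroblast markers or of the 5 choroid plexus markers tested passed, although the summed choroid plexus level was uneven, from 109 to 4086 CPM in WT and from 82.3 to 757 CPM in GFAP-IL6 mice. T cell and neutrophil markers could be tested for only 2 genes each and did not pass, with summed levels of 1.84 to 4.71 CPM and 0.524 to 3.77 CPM in WT and of 3.71 to 4.84 CPM and 1.79 to 5.37 CPM in GFAP-IL6 mice. The neutrophil marker Ly6g was at 0 in all libraries. The part of cell numbers in the differences of Osmr, Socs3, Stat3, Il6ra and Ptpn6 was not tested.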

How the data were processed

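The deposited counts of 24 3'Pool-seq libraries from 6 mice were analysed. According to the study's methods, the authors trimmed polyA stretches, aligned reads to mm10 with STAR 2.4 and counted unique alignments on GENCODE vM6 genes with featureCounts. The labels name hg19, but the gene identifiers are mouse. The deposited values are raw counts per gene without normalization, and since a read marks a 3' end, no correction for gene length was made. Totals were 1524165 to 12256374 counts per library.

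Counts were summed per mouse and genotypes compared with edgeR 4.0.16 in R 4.3.3 (TMM, filterByExpr, quasi-likelihood test), with Benjamini-Hochberg adjustment over all genes tested and a threshold of 0.05. CPM are scaled by TMM-adjusted totals, and ratios use a pseudocount of 0.5. The study's methods name DESeq2 for differential expression, which was used here (1.42.0) as an alternative. Interactions with cDNA amount and set letter were fitted with limma 3.58.1 (voom, mouse as random block). Other alternatives were DESeq2 size factors, no TMM, no filter, a minimum of 10 counts, an adjusted p of 0.1 with a log2 fold change of 1.5, a replicate block, and leaving out each mouse. The minimum applied to every mouse in the summed libraries and to every library within a set. Python 3.11.15, numpy 2.4.6, pandas 2.3.3, scipy 1.17.1 and matplotlib 3.10.9 were used for the other steps. The tests were also run on simulated counts with known, large changes in well-counted genes. The simulated libraries of a mouse differed by counting error alone. Small changes, genes near the detection limit and the larger spread of the real libraries were therefore not checked.

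Gene positions are from GENCODE vM21 (mm10), and promoter windows from RefSeq. The last 300 nt of the 10 genes were compared with those of other genes with minimap2 2.31-r1302, and none had a copy of at least 97% identity over 100 nt. Intervals on counts cover counting error only, since reads without molecular identifiers are not independent molecules. The 10 genes, the gene lists and the tests were chosen with earlier results of these data known. Named besides the 10 were genes of the pathway lists that passed (at most the 8 with the largest change per list), the 3 genes most correlated with Osmr, Stat3 and Socs3, and those that a count of 5 or fewer or an overlap made necessary, the last chosen after their values were seen.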

Additional observations from a re-analysis of the deposited data

How the results depend on the processing

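Il6 passed in each of the 12 fits that tested it and Osmr in each of 14, the main one included. Il6ra, Il6st, Lifr, Jak1 and Jak2 passed in none of 14, Socs3 in 8 of 13, Stat3 in 5 of 14 and Bcl3 in 1 of 12 (without a filter, adjusted p = 0.0498). The minimum of 10 counts per mouse and the voom fit left out Il6 and Bcl3, and the voom fit also Socs3. The sign turned for 2 genes whose difference was near 0: Lifr was at -0.009 on the log2 scale with DESeq2, -0.0054 with its size factors and -0.0022 with the replicate block, and Jak2 at 0.030 without TMM, 0.0009 without a filter and 0.0056 with a minimum of 10 counts per mouse. Leaving out each mouse gave -0.1113 to 0.1394 for Lifr and -0.0805 to 0.0401 for Jak2. The causes of these moves were not tested.

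Without a filter, 5 instead of 3 of the 10 genes passed in the summed libraries, and 462 instead of 263 of all genes; the voom fit called 453 genes, and fits without 1 mouse 146 to 321, with 146 without GFAP-IL6 mouse 3. Within sets, the number of the 10 genes that passed moved as follows. In 2 ng set A (main 0) it was 1 with DESeq2, 1 without a filter and 0 to 1 without 1 mouse; in 1 ng set A (main 2) it was 0 with DESeq2, 4 without a filter, 0 with at least 10 counts and 0 to 3 without 1 mouse; in 2 ng set B (main 0) it was 1 without a filter and 0 to 1 without 1 mouse; in 1 ng set B (main 1) it was 2 without a filter, 0 with at least 10 counts and 0 to 2 without 1 mouse. Of all genes, 2 ng set A (main 125) gave 77 with DESeq2, 199 without a filter, 79 with at least 10 counts and 57 to 141 without 1 mouse. The 1 ng set A (main 136) gave 214 without a filter and 62 to 169 without 1 mouse. The 2 ng set B (main 132) gave 200 without a filter, 72 with at least 10 counts and 59 to 160 without 1 mouse, and the 1 ng set B (main 140) 228 without a filter and 54 to 162 without 1 mouse. The lowest of each range was without GFAP-IL6 mouse 3, the most deeply sequenced. The interaction with cDNA amount gave 0 genes in all 8 alternatives. The 4 ratios kept their direction and moved by less than the larger of the SDs of the 2 genotypes with a pseudocount of 1 and without any 1 mouse. The interaction with set letter was chosen after seeing the data.

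Mice of both genotypes carry the numbers 1 to 3, but the labels do not say that a number marks a litter or a day, and same-numbered mice did not deviate together (Pearson r = -0.049, -0.037 and -0.061 across genes). No mouse correlated best with its own number, so the numbers were not taken as pairs. With the replicate block, 2 of the 10 genes and 215 of all genes passed in the summed libraries, adjusted p of Socs3 being 0.0728, and in 2 ng set B 83 of all genes passed.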

Other observations

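The 4 libraries of a mouse start from the same RNA, so their spread around the mouse's own level is technical. Relative to the variance that counting alone gives, Stat3 varied 1.498-fold, Jak1 1.75-fold, Jak2 2.02-fold, Socs3 2.18-fold, Il6st 2.30-fold, Il6 2.44-fold, Bcl3 2.81-fold, Osmr 2.89-fold, Lifr 3.94-fold and Il6ra 4.60-fold. The median over all genes tested was 2.36. Mice with fewer than 10 counts of a gene were left out, which left 3 mice for Il6 and 4 for Bcl3. Il6ra and Lifr thus had the largest spread relative to counting error among the 10 genes, which is not the spread relative to their level. In genes of about the same mean count the median was 1.97 for Il6ra and 2.30 for Lifr.

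Most IL-6 family cytokines other than Il6 were too low to test in this tissue. Lif was at 0 to 0.222 CPM in WT and 0.026 to 0.144 CPM in GFAP-IL6 mice, and Osm, which encodes the ligand of the Osmr chain, at 0 to 0.262 CPM and 0 to 0.240 CPM. In both genes the genotypes overlapped. Ebi3, a subunit of heterodimeric cytokines of the family, was at 3.54 to 5.93 CPM in WT and 6.96 to 8.19 CPM in GFAP-IL6 mice, without overlap, but did not pass (log2 fold change 0.67 ± 0.20, adjusted p = 0.151). Jak3, a kinase gene of lymphoid and myeloid cells, was at 0.656 to 0.884 CPM and 1.37 to 2.39 CPM, without overlap, and did not pass either (log2 fold change 1.18 ± 0.39, adjusted p = 0.242). These 4 genes were chosen after their values were seen.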
